A study of Caenorhabditis elegans with 2 samples.

Results

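The cell cycle genes described here are 10 genes that control the exit from first larval (L1) arrest in the nematode Caenorhabditis elegans, out of 19973 protein-coding genes in the annotation. They are the cyclin-dependent kinase (CDK) genes cdk-1, cdk-2 and cdk-4, the cyclin genes cya-1, cyb-1, cyd-1 and cye-1, the CDK inhibitor gene cki-1, the retinoblastoma (Rb) gene lin-35 and the E2F gene efl-1. The genes were taken from a list, and the summit of every peak from 2000 bp upstream of a gene's 5′ end to its 3′ end was assigned to it. The protein immunoprecipitated was the nuclear hormone receptor NHR-19, fused to EGFP and pulled down with an anti-GFP antibody. All larvae came from strain OP791, which carries the insertion wgIs791, made from a fosmid clone with nhr-19 tagged with TY1, EGFP and 3xFLAG, together with unc-119(+), in an unc-119 (tm4063) mutant background. They were L1 larvae held without food after bleaching, with an age of 6 hours. There were 2 biological replicates of 1 group, so no condition was compared with another, and values of both replicates are given instead of a mean and SD. Whole larvae were used, so signal from different cell types cannot be told apart. The deposited peak lists hold no read counts to give the depth.

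L1 larvae that hatch without food stop development, and many of their somatic blast cells wait in G1 until feeding. In G1, cyclin D with CDK-4 and cyclin E with CDK-2 drive cells towards S phase, and the inhibitor CKI-1 restrains these kinases and is known to be needed for the arrest. LIN-35, the only Rb family protein of this animal, represses genes together with E2F proteins such as EFL-1, and cyclin D with CDK-4 acts against this repression. Cyclin A, cyclin B and CDK-1 act later, in S phase and mitosis. NHR-19 is a nuclear hormone receptor, a class of DNA-binding transcription factors that in many cases respond to small lipophilic ligands.

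A peak of the conservative list, which the authors made from the true replicates, is called a site below, and a peak of the matching ranked list that failed the threshold is called a candidate. The ranked list gives each peak an irreproducible discovery rate (IDR), and the conservative list holds peaks with an IDR at or under 0.01. Signal below is the value of peak signal that the authors deposited for each peak. Its level was compared within 1 list, and between the lists of the replicates only as a ratio set beside the ratios of all sites.

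Of the 10 genes, 5 had a site, and together they had 6 sites and 15 candidates. The 5 were efl-1, lin-35, cye-1 with 2 sites, cyb-1 and cki-1. None of the 3 CDK genes had a site, nor did the cyclin genes cya-1 and cyd-1. In the same window, 21.0% of all protein-coding genes had a site. Among the 16423 genes with a window between 2866 and 14527 bp, the range of the 10 genes, it was 20.9%. This comparison was chosen after seeing the data. It did not match window length closely. The median window was 5327.5 bp for the 10 genes and 4027 bp for all genes. All 10 genes had a site or a candidate, against 54.6% of all protein-coding genes, and among genes with either, 38.4% had a site. Only 4 of the 15 candidates had a summit within 200 bp in the ranked lists of both replicates. The share of 5 in 10 is given as a description, since the genes were not drawn at random.

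The sequences under 3 of the sites are shown here. The efl-1 site was chosen for the strongest signal of the 6, and the cki-1 site as that of the CDK inhibitor gene. The cyb-1 site was chosen because its summit lies between the 5′ ends of cyb-1 and a divergent DNA replication gene. The sequences were read from the RefSeq genome, assembly WBcel235, the same assembly as ce11, on the strand of the gene, from 5′ to 3′. For efl-1 and cyb-1 the whole peak is printed, and for cki-1 the 101 bases centred on the summit. Capitals mark matches, on either strand, to the words searched.
efl-1 site, chrV:16965716-16965983, minus strand: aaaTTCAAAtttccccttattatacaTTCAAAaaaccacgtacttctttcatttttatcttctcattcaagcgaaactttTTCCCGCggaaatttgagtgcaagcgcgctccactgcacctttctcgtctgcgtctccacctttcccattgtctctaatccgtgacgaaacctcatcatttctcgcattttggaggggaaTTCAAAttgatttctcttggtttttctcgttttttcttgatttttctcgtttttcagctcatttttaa
cyb-1 site, chrIV:10734607-10734827, plus strand: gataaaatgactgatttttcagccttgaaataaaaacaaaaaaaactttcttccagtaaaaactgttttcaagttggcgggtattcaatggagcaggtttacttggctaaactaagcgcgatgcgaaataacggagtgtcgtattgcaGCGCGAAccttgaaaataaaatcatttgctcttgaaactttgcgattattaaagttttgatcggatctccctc
cki-1 site, chrII:7809232-7809332, plus strand: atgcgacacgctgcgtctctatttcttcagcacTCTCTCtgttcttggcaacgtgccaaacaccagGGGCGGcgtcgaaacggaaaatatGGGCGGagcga

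In the efl-1 peak the capitals are an E2F-like word, TTCCCGC, that begins 51 bases before the summit, and 3 copies of TTCAAA, the reverse complement of the CHR-like word TTTGAA. In the cyb-1 peak they are 1 E2F-like word, GCGCGAA, the reverse complement of TTCGCGC, that begins 39 bases after the summit. In the cki-1 stretch they are the reverse complement of GAGAGA and 2 copies of GGGCGG, that of the CG-rich box CCGCCC. No marked word overlaps another. No annotated exon overlaps the efl-1 or the cyb-1 peak. All 101 bases of the cki-1 stretch are annotated exon, and its summit lies inside the non-coding RNA gene T05A6.15.

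**Figure D1:**
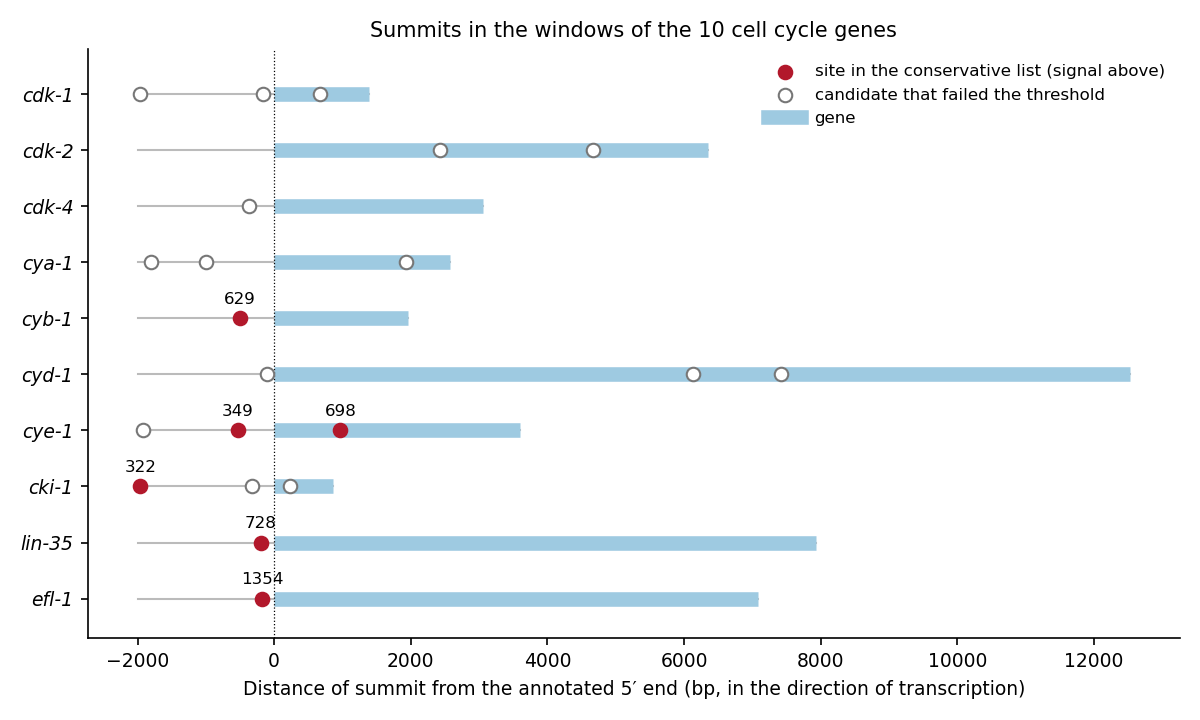
Position of every summit in the windows of the 10 genes, as the distance in bp from the annotated 5′ end. Filled points are the 6 sites, with their signal above them, open points the 15 candidates, bars the genes and thin lines the 2000 bp upstream. Of the sites, 5 lie upstream of a 5′ end and 1 in an intron of cye-1, and cki-1 has its site near the far edge of its window.

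The Rb and E2F genes held the strongest sites. The efl-1 gene, which encodes an E2F transcription factor, lies on chromosome V at 16958590 to 16965675 (ce11, minus strand). Its site had a signal of 1354 in the conservative list, 679 in replicate 1 and 685 in replicate 2. It ranked 261 of 4560 sites, and its summit lay 177 bp upstream of the annotated 5′ end. The nearest other site lay 143510 bp beyond the 3′ end of efl-1.

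The lin-35 gene, on chromosome I at 5807709 to 5815637 (plus strand), encodes the Rb protein. The signal of its site, at 5807379 to 5807647, was 728 in the conservative list, 400 in replicate 1 and 333 in replicate 2, at rank 704. The summit lay in intergenic sequence 199 bp upstream of lin-35 and 219 bp upstream of vps-51, a gene of vesicle tethering that is transcribed in the opposite direction. Neither efl-1 nor lin-35 had any further candidate, although their windows span 9086 and 9929 bp.

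Of the 4 cyclin genes, those for cyclin E and cyclin B had sites. The cye-1 gene, on chromosome I at 6780799 to 6784397 (plus strand), encodes cyclin E, and alone among the 10 genes had 2 sites. The stronger, at 6781645 to 6781888 with its summit in an intron 970 bp downstream of the 5′ end, had a signal of 698 in the conservative list, 383 in replicate 1 and 309 in replicate 2. The weaker, at 6780171 to 6780301, lay 532 bp upstream of cye-1 and 116 bp upstream of the divergent prion-like gene pqn-21, with 349, 179 and 178. Among all genes with a site, 18.2% had 2 or more.

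The cyb-1 gene, on chromosome IV at 10735216 to 10737177 (plus strand), encodes a cyclin B that acts in mitosis. Its site had a signal of 629 in the conservative list, 339 in replicate 1 and 305 in replicate 2, at rank 827. The summit lay 500 bp upstream of cyb-1, but only 128 bp upstream of orc-5, a divergent gene for a subunit of the origin recognition complex, which loads the replicative helicase. The 5′ ends of this pair are 628 bp apart. When each summit was given to the gene of nearest 5′ end alone, the site went to orc-5 and cyb-1 had none.

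The CDK inhibitor gene had the weakest of the 6 sites. The cki-1 gene lies on chromosome II at 7811240 to 7812105 (plus strand) and encodes an inhibitor of the CIP/KIP family. Its site had a signal of 322 in the conservative list, 147 in replicate 1 and 186 in replicate 2, at rank 1914. The summit lay 1958 bp upstream of the 5′ end, inside the annotated non-coding RNA gene T05A6.15, and no other protein-coding gene's window held it. It lay just inside the window, and with 1000 bp upstream in place of 2000 bp cki-1 had no site. Nearer to the gene there were candidates alone, with signals of 56.4 at 328 bp upstream and 83.2 in an intron.

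Both replicates held all 6 sites in their own thresholded lists, with summits at most 32 bp from those of the conservative list. Of all sites, 67.1% were matched in this way within 200 bp, and of the 1914 sites at least as strong as that of cki-1, 99.2% were. The signals fell in the same order in the conservative list and in replicate 1, from efl-1 through lin-35, the cye-1 intron, cyb-1 and upstream cye-1 to cki-1. In replicate 2 the last pair changed places. The ratio of replicate 2 to replicate 1 was 1.01 for efl-1, 0.83 for lin-35, 0.81 for the cye-1 intron, 0.90 for cyb-1, 0.99 for upstream cye-1 and 1.27 for cki-1. The median ratio over all 3058 sites in both replicates was 0.87, with 10% of sites below 0.67 and 10% above 1.14. The cki-1 site thus stood outside this range, with 96.0% of sites at or below its ratio, and the other 5 stood inside it.

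**Figure D2:**
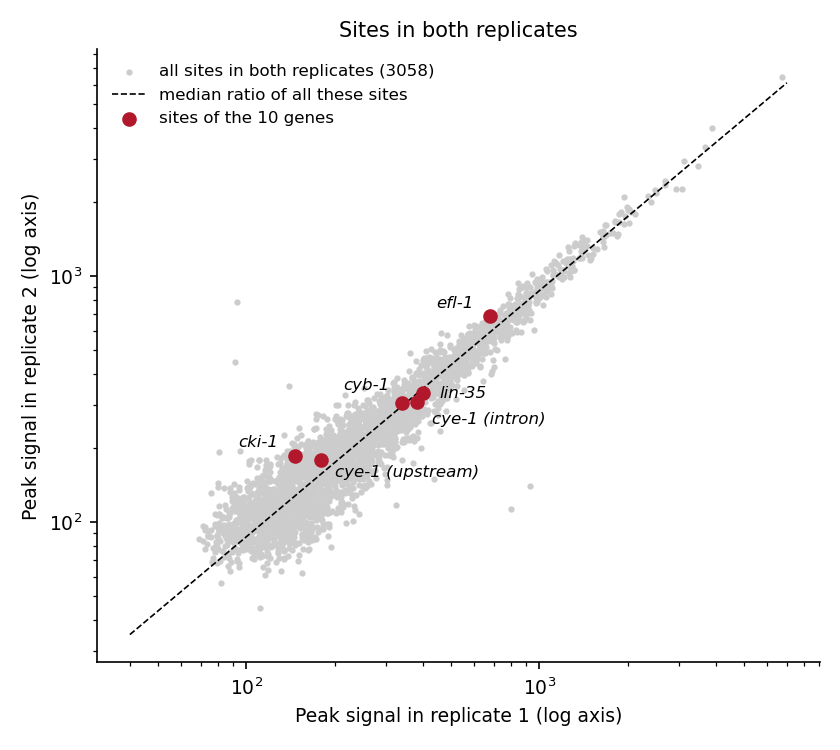
Peak signal in replicate 1 against replicate 2, both on log axes, for the 3058 sites of the conservative list found in both replicates (grey) and the 6 sites of the cell cycle genes (red). The dashed line is the median ratio of 0.87; the cki-1 site, with 147 and 186, lies farthest above it of the 6.

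In signal, the 6 sites stood above the middle of the list. They ranged from 322 to 1354, and the median of all sites was 267. The highest signal of each gene had a median of 698 over the 5 genes with a site and 341 over all 4196 protein-coding genes with a site. The candidates of the 10 genes had signals of 56.4 to 134, below all 6 sites. Over the whole list signal did not divide the kinds of peak in this way, with sites down to 43.6 and candidates up to 2268. All 15 candidates were 400 bp wide, which was also the median width of all candidates. Of the 6 sites, 5 were narrower, between 131 and 269 bp. Of all 4560 sites, 43.3% were narrower than 400 bp, and of those at least as strong as that of cki-1, 86.8% were.

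**Figure D3:**
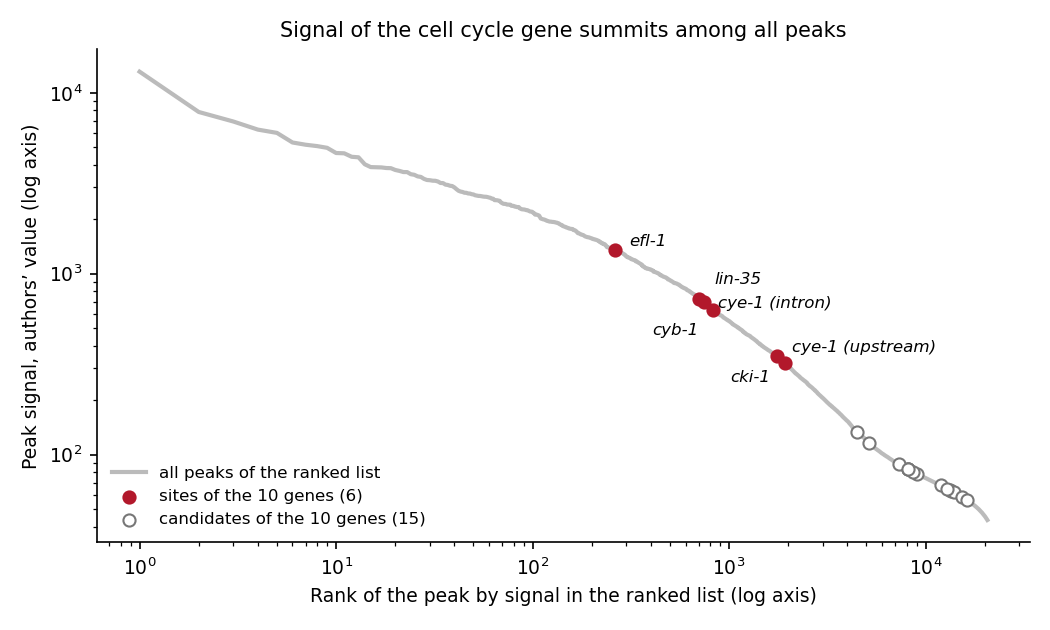
Signal of every peak of the ranked list against its rank by signal, both on log axes (grey line), with the 6 sites (filled) and 15 candidates (open) of the cell cycle genes. The sites of these genes lie between 322 and 1354 and their candidates between 56.4 and 134, so that a gap separates them. Over the whole list the signals overlap, with sites down to 43.6 and candidates up to 2268.

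The genes for the kinases themselves had candidates only. For cdk-4, the partner of cyclin D, the strongest candidate had a signal of 117 at 374 bp upstream, with an IDR of 0.310, and 46.7 in the ranked list of replicate 1 and 66.5 in that of replicate 2. For cdk-1, the mitotic kinase, the strongest had 83.1 in an intron, with an IDR of 0.477, and a further candidate of 63.8 lay 167 bp upstream. Both of these cdk-1 candidates and the cdk-4 candidate also fell in windows of other protein-coding genes. For cdk-2, the partner of cyclin E, the strongest candidate had 83.1 in an intron, with an IDR of 0.526. Its summit lay 2427 bp downstream of the 5′ end and 572 bp upstream of a second annotated transcript start. In the ranked list of replicate 1 no summit lay within 200 bp, and in that of replicate 2 the signal was 53.7. The nearest sites outside the windows were 736 bp before that of cdk-1, with a signal of 169, 1277 bp beyond the 3′ end of cdk-4, with 1311, and 2174 bp before the window of cdk-2, with 207.

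The cyclin D gene cyd-1, with the longest window of the 10 genes, had 3 candidates. The strongest, with a signal of 88.3 and an IDR of 0.511, lay in an intron 7416 bp downstream of the 5′ end and 216 bp upstream of a second annotated transcript start. Another candidate lay 107 bp before that gene's 5′ end, with a signal of 64.9. The cyclin A gene cya-1 came nearest to the threshold. Its candidate 1804 bp upstream, at 9110876 to 9111275 on chromosome III, had a signal of 134 and an IDR of 0.0174, with 58.6 in the ranked list of replicate 1 and no summit within 200 bp in that of replicate 2. In the list from pooled pseudoreplicates the same peak had an IDR of 0.00276 and passed, so that cya-1 counted as a sixth gene there, as it did at an IDR of 0.05.

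By position, 5 of the 6 sites lay upstream of their gene and 5 of 6 also fell in the window of another protein-coding gene. Over all pairs of a gene and a site in its window, 71.3% were upstream, and of the 3739 sites in any window, 34.1% were in the windows of 2 or more genes. The neighbours were orc-5, pqn-21 with both cye-1 sites, vps-51, and the F-box gene fbxa-90, whose 5′ end lies 962 bp from the efl-1 summit. All 4 are transcribed away from the cell cycle gene. By nearest 5′ end, the efl-1, lin-35 and cye-1 intron summits went to the cell cycle gene. The cyb-1 summit went to orc-5 and the upstream cye-1 summit to pqn-21. Which gene a shared site acts on was not tested.

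Words were sought on both strands within 50 bp of each summit. Of these, the E2F-like and CHR-like words are known from cell cycle promoters. The E2F-like words TTCCCGC or TTGGCGC or TTCGCGC or TTGCCGC were found at 2 of the 6 sites, those of cyb-1 and upstream cye-1, and at 9.06% of all 4560 sites. The CHR-like word TTTGAA was at upstream cye-1 and at 15.5% of all sites. GAGAGA was at cki-1 and at 25.8%, and CCGCCC at cki-1 and at 5.68%. The E-box CACGTG was at none of the 6 and at 7.76%, and the nuclear receptor words AGGTCA or AGTTCA or GGGTCA or GGTTCA were at none of the 6 and at 13.7%. Within 100 bp of the summit, efl-1 joined the sites with an E2F-like word, which made 3, against 14.2% of all sites, and both cye-1 sites had a nuclear receptor word, as did 1151 of the 4560 sites. At this width the CHR-like word was at 2 of the 6 sites, against 31.6% of all sites, and GAGAGA at 3, against 39.8%. The GC content within 50 bp of the summit was 41.6 to 55.4% at the 6 sites, against a median of 45.5% over all sites.

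Sites were also counted in 6 lists of genes that act beside these 10, such as other cyclins and CDKs, Rb partners and S phase genes. Of 85 genes found in the annotation, 42 (49.4%) had a site, against 21.0% of all protein-coding genes. A site or a candidate was present for 65 of the 85, against 54.6% of all protein-coding genes. The lists were chosen with earlier results of these data known, and their window lengths were not compared with those of all genes. These shares are therefore given as a description. The highest signals of the 42 genes had a median of 422, against 341 for all genes with a site. The strongest sites of cyl-1 and mcm-5 had no match in the thresholded list of either replicate. That of lin-61 was matched in replicate 1 only, and those of cdt-2, rbx-1 and rnr-1 in replicate 2 only.

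The partners of Rb and E2F had 9 of 14 genes with a site. They were led by lin-54 (3096), lin-9 (1995) and lin-53 (1771), which encode subunits of the DRM complex that contains LIN-35. The lin-54 site also lies in the windows of the ribosomal protein gene rpl-12 and of tag-115, the stronger of lin-9 in the window of unc-32 and that of lin-53 in the windows of rba-1 and nra-2. The E2F dimerisation partner gene dpl-1 had neither site nor candidate. Of the S phase genes, 9 of 13 had a site, led by the sliding clamp gene pcn-1 (1858), the helicase loader gene cdc-6 (978) and the helicase subunit gene mcm-4 (874). The cdc-6 site also lies in the window of acin-1.

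Other cyclin, CDK and CDK inhibitor genes had 7 of 19 with a site. The strongest were cdk-5 (1457), cdk-7 (1339), whose product activates other CDKs and acts in transcription, and cdk-9 (564), a kinase of transcription elongation. Their strongest sites also lie in the windows of kel-3, Y39G10AR.11 and hxk-2 respectively. The second inhibitor gene, cki-2, had candidates only. Among genes listed for phosphorylation of or by CDKs, the inhibitory kinase gene wee-1.3 (558) and the phosphatase gene cdc-14 (513) had sites. They were the only 2 of 7, and none of the 4 cdc-25 phosphatase genes had a site. The cdc-14 site also lies in the window of ttc-4.

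Among genes for the turnover of cyclins and inhibitors, 7 of 20 had a site, led by the F-box gene lin-23 (687), the cullin gene cul-4 (641) and the CUL-2 adaptor gene zyg-11 (585). Genes of L1 arrest signalling had 8 of 12, led by the S6 kinase gene rsks-1 (1346), the AMPK subunit gene aak-2 (1065) and the FOXO gene daf-16 (534). The strongest daf-16 summit lay in the gene body, 19351 bp downstream of the annotated 5′ end. In the window from 1000 bp upstream to 500 bp downstream of the 5′ end the count was 2 of 12, against 14.1% of all protein-coding genes, whereas the 8 of 12 above stand against 21.0%.

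**Figure D4:**
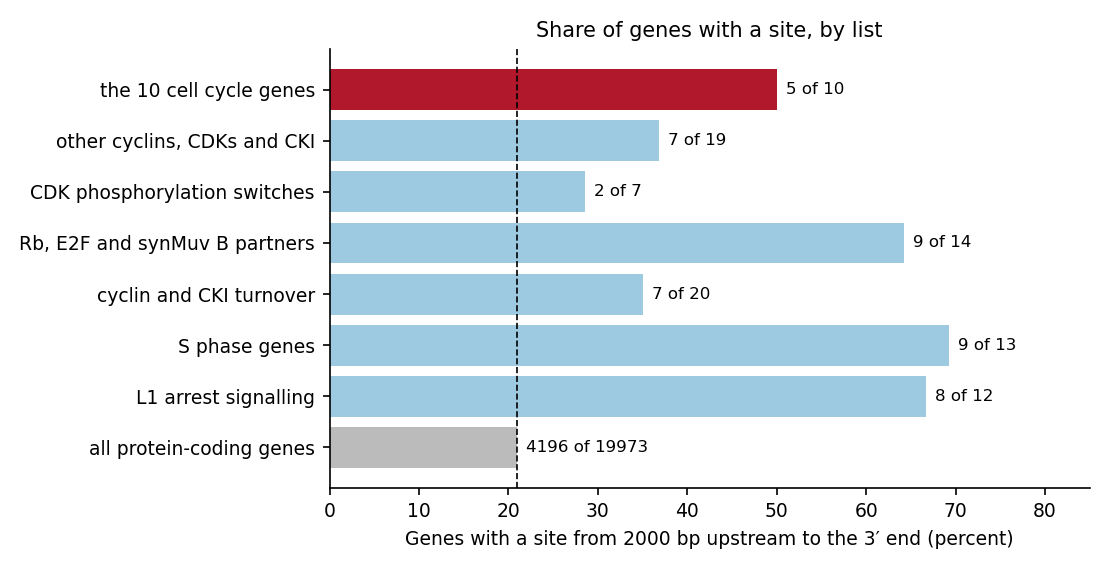
Percentage of genes with a site from 2000 bp upstream to the 3′ end, for the 10 cell cycle genes (red), the 6 lists of related genes (blue) and all protein-coding genes (grey, dashed line at 21.0%), with counts beside the bars. The 10 genes had 5 with a site, and the lists ran from 2 of 7 to 9 of 13.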

How the data were processed

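Chromatin immunoprecipitation of GFP-tagged NHR-19 with sequencing was done on 2 biological replicates of starved L1 larvae, with chromatin sonicated to 200 to 800 bp, per the labels. The authors deposited 8 peak lists on ce11, per the README text in the deposit. The signal of each peak and, in ranked lists, the −log10 of the global IDR are the values the authors deposited. No source used here names the peak caller, the aligner or the control that was used. The labels name a possible control experiment, which was not analysed here. Another label gives nhr-19 as the antibody, and the anti-GFP description was followed. No source used here says how signal was scaled to depth, so levels were compared within 1 list, and between replicates only as ratios beside those of all shared sites. Depth is unknown. In the 2 ranked lists of the whole series, 16 columns on single replicates carry no sample name and were not used.

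The annotation was Ensembl release 115 (WBcel235), and 99.8% of its coding transcripts start with ATG in the RefSeq genome. Peaks were not merged. Summits were assigned to windows with Python 3.11.15 and pandas 2.3.3, and summits of replicate lists were matched within 200 bp. No test was made, since there is 1 group. The assignment was checked on planted summits. Named genes were the 10 genes, the neighbours that share a site, and the 3 of highest signal in each list. Also named, after their values were seen, were dpl-1, cki-2, the cdc-25 genes and the neighbours of sites in the lists. So were the list genes whose strongest site was not matched in both replicates. All genes and lists were chosen with earlier results of these data known. cdc-45 was not found in the annotation under that name.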

Additional observations from a re-analysis of the deposited data

How the results depend on the processing

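The count of cell cycle genes with a site was 5 and ranged from 4 to 6 over 9 alternatives. It was 5 without replicate 1 and without replicate 2, with the same 5 genes, and also in the strongest 50% of sites. The share of all genes was 18.5% without replicate 1 and 18.3% without replicate 2. It was 6 in the pooled pseudoreplicate list (20.8% of all protein-coding genes) and at an IDR of 0.05 (23.5%), where cya-1 was added. It was 4 with 1000 bp upstream (17.3%), around the 5′ end (14.1%) and around any transcript 5′ end (15.1%), where cki-1 was lost, and with the nearest 5′ end only (14.3%), where cyb-1 was lost. The share of all protein-coding genes with a site fell from 21.0% to 12.8% in the strongest 50% of sites. It was 20.9% over the 16423 genes with windows of 2866 to 14527 bp, an alternative chosen after seeing the data. With 100 bp on each side of the summit in place of 50 bp, pairs of a site and a matching motif rose from 5 to 11, as the window was wider. The 6 sites were matched in both replicates at 100, 200 and 500 bp. The highest signal of cye-1 was 349 around the 5′ end, where its intron site falls outside. Among the related lists, the Rb and E2F partners fell from 9 to 5 genes with the nearest 5′ end only, the S phase genes from 9 to 5 in the strongest 50% of sites, and L1 arrest signalling from 8 to 5 with 1000 bp upstream, 3 around any transcript 5′ end and 2 around the 5′ end. Library depth is unknown and limits how far a candidate can be read as a site that is missing.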

Other observations

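The words were also counted from 250 bp upstream to 50 bp downstream of the annotated 5′ end, whether or not a site lay there. An E2F-like word was present for 3 of the 10 cell cycle genes, cdk-2, cyd-1 and efl-1, against 9.20% of all protein-coding genes. Of these, efl-1 alone had a site. The CHR-like word was present for 8 of 10, against 62.5%. The E-box was present for cya-1 and cyb-1, against 5.82%, and lay within 100 bp of none of the 6 site summits, against 11.6% of all sites. The nuclear receptor words were present for 2 of 10, against 36.8%, GAGAGA for 1, against 21.8%, and CCGCCC for none, against 7.83%.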
